A study of Mus musculus with 16 samples.

Results

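The genes described here are the 3 opioid peptide precursors *Penk*, *Pdyn* and *Pnoc* and the 4 opioid receptors *Oprm1*, *Oprd1*, *Oprk1* and *Oprl1*, 7 of the 32285 genes counted in each library, taken by their symbols. Single-nucleus RNA and open chromatin were measured together in nuclei of the microdissected dentate gyrus (DG) of 8 mice. The WT group (VV in the labels) held 4 mice, 2 females (F1, F2) and 2 males (M1, M2). The V321L group (LL) held 4 mice homozygous for a valine-to-leucine missense allele of *Nrg1*, again 2 females and 2 males. The labels tie the allele to no promoter, Cre line or cell type, and a missense change cannot be read from gene counts. The age of these mice was not given in the sources used here. Each library came from 1 mouse, so p-values measure the spread between mice.

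Opioid peptides are cut from larger precursors that are packed in dense-core vesicles, and they act on receptors that couple to Gi/o proteins, lower cAMP, open inwardly rectifying potassium channels and close presynaptic calcium channels. Proenkephalin (*Penk*) gives enkephalins, ligands of the delta (*Oprd1*) and mu (*Oprm1*) receptors, prodynorphin (*Pdyn*) gives dynorphins, ligands of the kappa receptor (*Oprk1*), and pronociceptin (*Pnoc*) gives nociceptin, the ligand of the NOP receptor (*Oprl1*). In the hippocampus, dynorphin and enkephalin are known from the mossy fibers of granule cells (GCs), and mu and delta receptors from GABAergic interneurons.

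Of 16305 nuclei (9387 WT and 6918 V321L), 15313 were placed in 1 of 12 classes by UMIs of marker genes that include no opioid gene. The class markers were highest in their own class for 9 of 11 GC markers, 8 of 9 GABAergic markers and 9 of 9 oligodendrocyte markers, but for only 4 of 10 mossy cell markers, so values for mossy cells are those of a gate and not of a well separated type. The libraries shared between 1 and 13 nucleus barcodes per pair. Several measures moved with genotype and accompany every comparison below. The median GC held 1506 UMIs in WT libraries and 3851 in the mutants, the median mitochondrial share of GCs was 0.101% and 0.659%, and ribosomal protein genes took 0.0452% to 0.109% of GC UMIs in the WT mice and 0.794% to 1.70% in the V321L mice. Free RNA was estimated at 1.67% to 8.20% of GC UMIs over the mice. In barcodes with at most 100 UMIs, taken as free RNA, *Oprm1* stood at 42.5 CPM (UMIs scaled to the same total in every library) in WT and 4.22 CPM in V321L libraries, and *Pnoc* at 2.73 and 19.1 CPM. The part of these measures in any result was not tested beyond the values given.

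All 7 genes were counted sparsely. Over all nuclei, *Oprm1* gave 1390 UMIs, *Penk* 651, *Pdyn* 461, *Oprd1* 366, *Oprl1* 252, *Pnoc* 195 and *Oprk1* 14. The genes also differ in length, which matters for nuclear RNA below. *Penk* (ENSMUSG00000045573, chr4:4133536-4138815) spans 5.28 kb, *Oprl1* (ENSMUSG00000027584, chr2:181715000-181720985) 5.99 kb, *Pdyn* (ENSMUSG00000027400, chr2:129686549-129699938) 13.4 kb, *Oprk1* (ENSMUSG00000025905, chr1:5588450-5606134) 17.7 kb, *Pnoc* (ENSMUSG00000045731, chr14:65400673-65425564) 24.9 kb, *Oprd1* (ENSMUSG00000050511, chr4:132110188-132144486) 34.3 kb and *Oprm1* (ENSMUSG00000000766, chr10:6758593-7038209) 280 kb, in RefSeq coordinates of GRCm38.p6. Levels were therefore compared between classes and genotypes for 1 gene at a time, and not between genes.

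Promoters are shown for the 3 genes that stand for the 3 patterns described below, a GC peptide (*Pdyn*), a receptor lower in V321L GCs (*Oprm1*) and a receptor higher in them (*Oprd1*). At *Oprm1*, RefSeq lists 3 starts, of which the most upstream lay in no peak. Each line gives the 250 bases before the RefSeq start that lies in an ATAC peak, read 5′ to 3′ on the gene's strand. The *Pdyn* window is chr2:129699939-129700188 on the minus strand, that of *Oprm1* chr10:6788320-6788569 on the plus strand, and that of *Oprd1* chr4:132144487-132144736 on the minus strand. Capitals mark the motifs searched on both strands.
Pdyn: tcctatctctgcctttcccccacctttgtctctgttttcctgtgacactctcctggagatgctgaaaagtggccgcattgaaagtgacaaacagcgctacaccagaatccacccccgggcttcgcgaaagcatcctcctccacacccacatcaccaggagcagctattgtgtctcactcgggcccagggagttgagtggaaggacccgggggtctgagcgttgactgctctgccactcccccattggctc
Oprm1: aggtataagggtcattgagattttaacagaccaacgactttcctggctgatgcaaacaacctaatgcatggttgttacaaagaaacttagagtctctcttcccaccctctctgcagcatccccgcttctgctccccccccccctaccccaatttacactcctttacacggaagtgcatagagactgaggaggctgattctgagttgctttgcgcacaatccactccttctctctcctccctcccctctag
Oprd1: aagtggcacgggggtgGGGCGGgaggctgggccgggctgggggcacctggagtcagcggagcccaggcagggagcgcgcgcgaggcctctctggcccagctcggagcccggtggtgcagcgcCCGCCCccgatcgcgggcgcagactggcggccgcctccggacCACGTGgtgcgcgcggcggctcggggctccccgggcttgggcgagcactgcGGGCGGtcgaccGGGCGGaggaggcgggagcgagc
The motifs were the cAMP response element TGACGTCA (in 1.55% of 32851 RefSeq promoter windows of this length), its half-site TGACG, which the full element contains (17.8%), the AP-1 site TGANTCA (6.75%), the GC box GGGCGG (32.7%) and the E-box CACGTG (6.02%). The *Oprd1* window held 4 GC boxes and 1 E-box, while none of the 5 motifs was found in the *Pdyn* and *Oprm1* windows. The *Oprd1* window was 80% G and C with 34 CpG dinucleotides, and only 3.53% of windows held 34 or more. The values were 57.2% and 8 for *Pdyn*, 50% and 4 for *Oprm1*, and a median of 52.4% and 6 over all windows. A match is a run of letters and not a binding site.

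Each gene had its own distribution over cell classes. In the 8 classes with at least 10 nuclei in every mouse, *Pdyn* was highest in GCs, *Penk*, *Pnoc*, *Oprm1* and *Oprd1* in GABAergic neurons, *Oprk1* in pyramidal neurons of CA1 or the subiculum, and *Oprl1* in oligodendrocyte precursor cells (OPCs), although for *Penk*, *Pdyn*, *Oprd1*, *Oprk1* and *Oprl1* the first step down did not pass. The first place of *Oprk1* (4.76 ± 9.42 CPM) rested on 1 WT and 4 V321L UMIs, and only 2 of 8 mice were higher there than in GABAergic neurons. Classes were ordered by their mean over the 8 mice of both genotypes, and neighbours in the order were compared within mice by a two-sided exact sign-flip test on log2(CPM + 1), whose smallest p over 8 mice is 0.00781. Of the 49 neighbouring pairs, 5 passed 0.05 without adjustment for their number. WT mice alone or V321L mice alone could not reach 0.05. By the WT means alone, only *Pnoc* and *Oprm1* kept the same first class. *Oprd1* then stood higher in CA1 or the subiculum (20.3 ± 11.5 CPM) than in GABAergic neurons (11.2 ± 2.56 CPM), and *Penk* was higher in OPCs (15.8 ± 31.6 CPM) and in CA1 or the subiculum (14.2 ± 10.6 CPM) than in GABAergic neurons (12.06 ± 12.05 CPM). *Pdyn* was higher in WT microglia (9.05 ± 18.1 CPM, 0 in some mice) than in WT GCs (5.32 ± 1.07 CPM), and *Oprk1* (4.44 CPM) and *Oprl1* (6.67 CPM) came first in GABAergic neurons. By the V321L means alone, the first class was the one given above for all 7 genes.

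**Figure D1:**
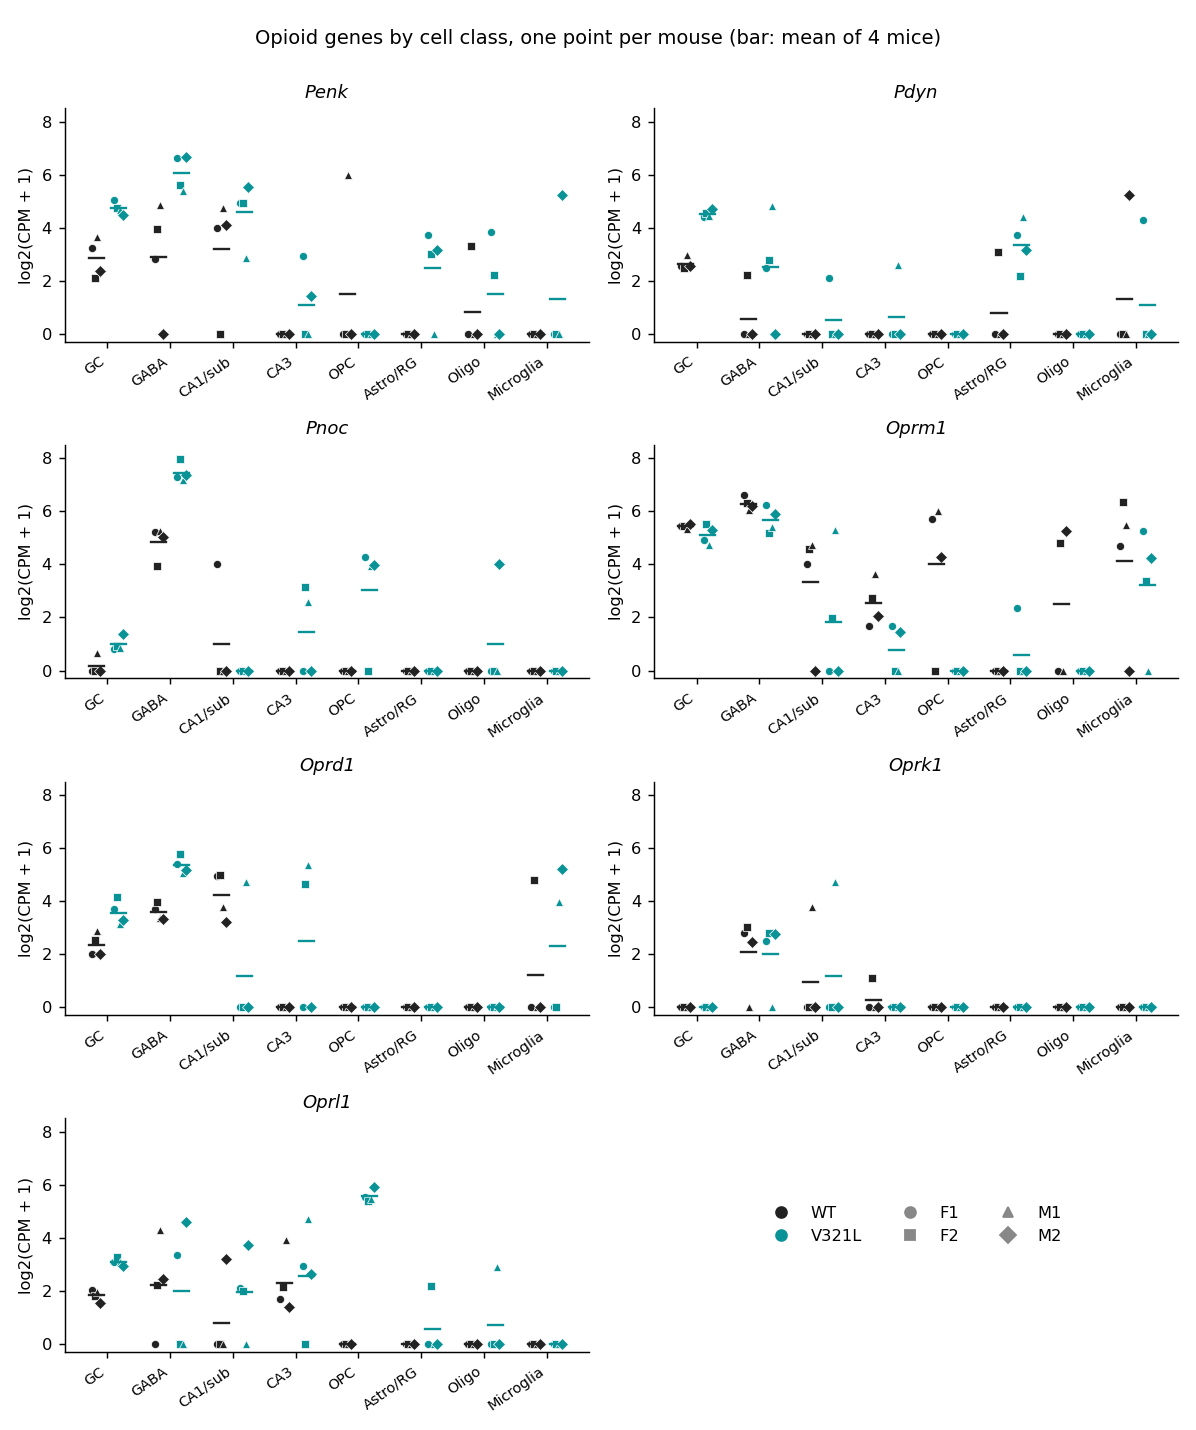
The level of each opioid gene, as log2(CPM + 1), in 8 cell classes, with 1 point per mouse (black WT, teal V321L; symbols mark the replicate) and a bar at the mean of 4 mice. *Pnoc* stood highest in GABAergic neurons in all 8 mice, *Oprk1* was at 0 in GCs of every mouse, and *Oprl1* in OPCs was at 0 in the 4 WT mice and between 40.9 and 58.8 CPM in the 4 V321L mice.

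Among the peptide precursors, *Pdyn* averaged 13.7 ± 9.11 CPM in GCs (SD, n = 8 mice, both genotypes). It exceeded the next class, microglia at 6.87 ± 13.5 CPM, in 7 of 8 mice, and that difference did not pass (exact sign-flip p = 0.0547). GABAergic neurons held less *Pdyn* than GCs of the same mouse in 7 of 8 mice, by 2.05 on the log2(CPM + 1) scale (exact sign-flip p = 0.0234). Oligodendrocytes, which served as the class that should lack these genes, and OPCs held no *Pdyn* UMI. *Pnoc* averaged 104 ± 85.6 CPM in GABAergic neurons and 5.92 ± 8.24 CPM in the next class, OPCs (higher in 8 of 8 mice, exact sign-flip p = 0.00781). In GCs *Pnoc* averaged 0.574 ± 0.557 CPM. *Penk* was spread more widely, with 41.6 ± 38.5 CPM in GABAergic neurons, 21.05 ± 14.63 in CA1 or subiculum and 16.3 ± 10.8 in GCs, 3 levels whose neighbours did not differ beyond their spread (exact sign-flip p = 0.508 and 0.844). GCs in turn exceeded the next class, OPCs, in 7 of 8 mice (exact sign-flip p = 0.031).

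Among the receptors, *Oprm1* was higher in GABAergic neurons (65.19 ± 19.96 CPM) than in GCs (38.6 ± 7.21 CPM) of the same mouse in 7 of 8 mice (exact sign-flip p = 0.0156), and the step from GCs to microglia (26.6 ± 26.8 CPM) did not pass (exact sign-flip p = 0.109). *Oprd1* averaged 25.8 ± 16.9 CPM in GABAergic neurons, 13.3 ± 13.5 in CA1 or subiculum and 7.79 ± 4.68 in GCs. It was higher in GABAergic neurons than in GCs in 8 of 8 mice (exact sign-flip p = 0.00781), and no UMI of it fell in astrocytes or radial glia, oligodendrocytes or OPCs. *Oprk1* was close to the limit of detection. None of its 14 UMIs came from GCs, which held 0 of 6763 WT and 0 of 4137 V321L nuclei with a UMI and so allow shares of nuclei with a UMI of up to 0.0444% and 0.0725%. GABAergic neurons held 7 *Oprk1* UMIs (4.27 ± 2.77 CPM), more than CA3 in 6 of 8 mice (exact sign-flip p = 0.031). In GCs, where *Pdyn* was highest, the gene of the dynorphin receptor was thus not detectable at this depth.

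All *Oprl1* UMIs in OPCs came from V321L mice. The 4 WT mice held 0 *Oprl1* UMIs in 159119 UMIs of OPCs, whereas the V321L mice held 45.4, 40.9, 43.3 and 58.8 CPM (F1, F2, M1, M2), 17 UMIs in all. No V321L mouse overlapped a WT mouse (exact permutation p = 0.0286, the smallest p that 4 against 4 mice allow). With the WT group set at 3 UMIs, the V321L level was 2.44-fold higher, a ratio that leaves out counting error of the 17 UMIs. The share of all OPC genes that separated in this way was not computed. In oligodendrocytes, 82.5% of tested genes under 20 kb, the length class of *Oprl1*, were called higher in V321L mice by edgeR. The mean share of OPCs with an *Oprl1* UMI, after every nucleus was thinned to 1000 UMIs, rose from 0% to 5.81% in V321L mice (exact permutation p = 0.0286). OPCs counted 118 WT and 187 V321L nuclei, with a median of 1135 UMIs in WT and 1913 in V321L mice. Only 74 WT and 181 V321L OPCs remained after thinning, so the WT share of 0% leaves room for a low share. In oligodendrocytes, with medians of 865 and 1105.5 UMIs, the thinned share was 0% in both genotypes. Free RNA held 6.09 CPM of *Oprl1* in WT and 10.2 CPM in V321L libraries.

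The comparison of V321L with WT asked whether opioid genes differ with the *Nrg1* allele within a class. In GCs, the precursors *Pdyn* and *Penk* and the receptors *Oprd1* and *Oprl1* were higher in V321L mice, and *Oprm1* was lower. *Pdyn* stood at 4.87, 4.58, 6.90 and 4.92 CPM in the WT mice and at 20.2, 22.7, 20.6 and 24.9 CPM in the V321L mice. The groups did not overlap, and the log2 fold change was 1.64 ± 0.18 (SE, edgeR quasi-likelihood test, Benjamini-Hochberg adjusted p = 2.9e-06). *Penk* stood at 8.52, 3.33, 11.5 and 4.10 CPM in WT and at 31.6, 26.0, 24.3 and 21.1 CPM in V321L mice. Here too the groups were apart, the nearest mice being at 11.5 and 21.1 CPM (log2 fold change 1.62 ± 0.27, edgeR adjusted p = 0.00012). Free RNA held *Pdyn* at 11.55 CPM in WT and 13.3 CPM in V321L libraries, beside GC means of 5.32 and 22.1 CPM. For *Penk* free RNA stood at 15.1 and 30.6 CPM, beside GC means of 6.86 and 25.8 CPM. Only *Pdyn* in V321L GCs thus stood above its free RNA level. *Pnoc* gave 1 UMI in WT and 16 in V321L GCs, too few to enter the fit, and a ratio of 13.0 with an exact 95% Poisson interval of 2.03 to 547 that covers counting error only.

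The receptors moved in both directions. *Oprd1* stood at 3.04, 4.79, 6.33 and 3.01 CPM in WT and at 11.99, 16.61, 7.75 and 8.82 CPM in V321L GCs (log2 fold change 1.01 ± 0.31, edgeR adjusted p = 0.0093). *Oprl1* stood at 3.04, 2.50, 2.88 and 1.91 CPM in WT and at 7.40, 8.74, 7.49 and 6.62 CPM in V321L GCs (log2 fold change 1.11 ± 0.26, edgeR adjusted p = 0.0016). For both receptors every V321L mouse exceeded every WT mouse. *Oprm1* stood at 43.2, 42.7, 39.7 and 44.8 CPM in WT and at 29.6, 44.8, 25.7 and 38.5 CPM in V321L GCs, so the groups overlapped and the plain CPM did not pass (exact permutation p = 0.171). With TMM normalization the log2 fold change of *Oprm1* was -0.75 ± 0.17 (edgeR adjusted p = 0.0011), and without TMM it was -0.30 and did not pass (adjusted p = 0.13). TMM moved the median of all GC genes from 0.57 to 0.11 on the log2 scale. Relative to that median, *Oprm1* stood at -0.87 and -0.86 with and without TMM, *Pdyn* at 1.53 and 1.53, *Penk* at 1.502 and 1.49, *Oprl1* at 0.999 and 1.01, and *Oprd1* at 0.90 and 0.91.

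These counts have a high background. Of the 7 genes, 5 passed the filter on low counts in GCs, of which 4 were called higher and 1 lower, and of all 12346 GC genes tested 38.7% were called higher and 31.7% lower. This split rests on the TMM scaling, since 6686 genes were called higher and 2144 lower without it, in place of 4772 and 3917. Among members with at least 20 UMIs in GCs, 4 of 5 had all V321L mice above all WT mice in CPM and 0 had them below, beside 41.8% and 14.6% of genes with as many UMIs. No member passed an edgeR test of sex by genotype in GCs (unadjusted p between 0.263 and 0.986).

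**Figure D2:**
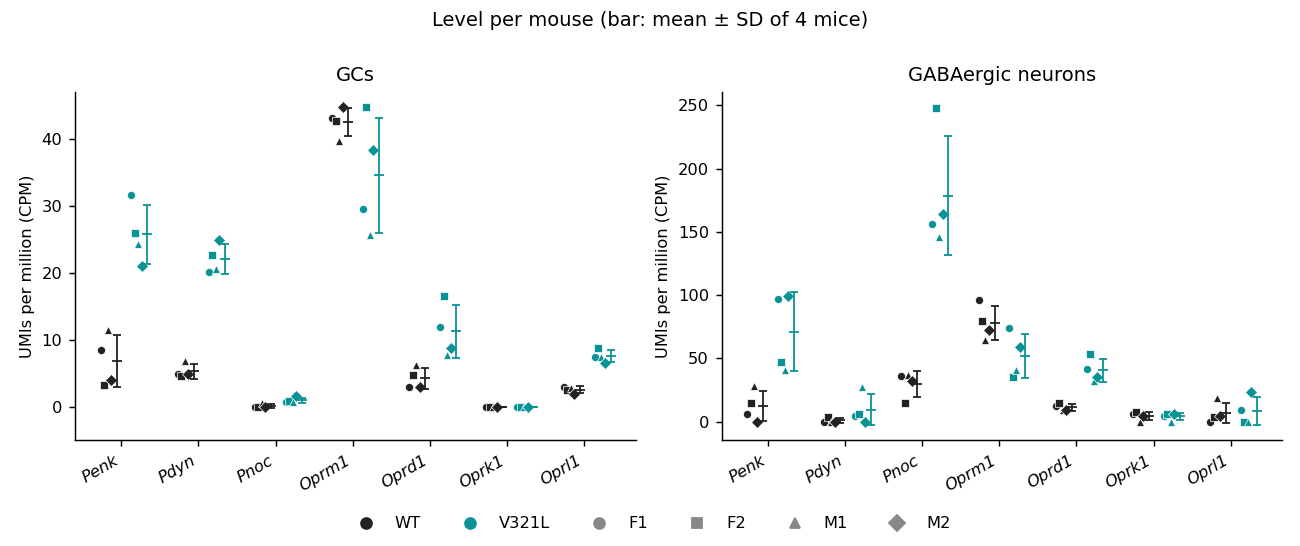
The level of each opioid gene in GCs (left) and GABAergic neurons (right) in CPM, 1 point per mouse, with the mean ± SD of 4 mice beside the points (black WT, teal V321L). In GCs the V321L mice lay between 20.2 and 24.9 CPM for *Pdyn* and the WT mice between 4.58 and 6.90, and in GABAergic neurons the V321L mice lay between 146 and 248 CPM for *Pnoc* and the WT mice between 14.5 and 37.1.

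At equal depth the shares of GCs with a *Pdyn*, *Penk* or *Oprd1* UMI were higher in V321L mice. After thinning to 1000 UMIs per nucleus, 4908 WT and 4042 V321L GCs remained. The share of GCs with a *Pdyn* UMI averaged 0.637% ± 0.311 over the WT mice and 2.33% ± 0.993 over the mutants (SD over 4 mice, exact permutation p = 0.0286), and without thinning 0.978% and 8.18%. For *Penk* the thinned shares were 0.530% ± 0.264 and 2.18% ± 0.450, and for *Oprd1* 0.405% ± 0.188 and 1.09% ± 0.247 (exact permutation p = 0.0286 each). At a mitochondrial share under 0.5% *Oprd1* no longer passed (0.375% and 0.852%, exact permutation p = 0.143), and without WT F2 or WT M2 *Pdyn* did not (exact permutation p = 0.0571). *Oprl1* at 0.296% and 0.719% did not pass (exact permutation p = 0.0571), although it did without thinning. For *Oprm1* the thinned shares were 3.82% ± 0.340 and 3.41% ± 0.654 (exact permutation p = 0.314), while the unthinned shares ran the other way, 7.44% and 12.3%. Without thinning, a deeper nucleus shows a UMI more often, and only the thinned value was read. Oligodendrocytes had median depths of 865 and 1105.5 UMIs. Thinned, they held *Pdyn*, *Oprd1* and *Oprl1* in 0% of nuclei in both genotypes, *Penk* in 0% and 0.424% on average over mice, and *Oprm1* in 1.86% and 0%. Only 78 WT and 350 V321L oligodendrocytes remained after thinning, so their WT shares of 0% cannot be told from the low WT shares of GCs. Of the members seen in at least 20 thinned GCs, 3 of 5 had all V321L mice above all WT mice, beside 39.8% of such genes, and 0 had them below, beside 11.2%. In all, 5 of 14 share tests passed, 3 in GCs and 2 in GABAergic neurons. The *Pdyn* call in GCs was lost without WT F2 or WT M2 (exact permutation p = 0.0571 each).

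The higher *Penk* count came with more UMIs per positive nucleus, and the higher *Pdyn* count hardly did. A GC with any *Penk* UMI held 1.11 of them on average in WT and 1.57 in V321L mice, with a maximum of 3 and 10, whereas a GC with any *Pdyn* UMI held 1.05 and 1.09, with a maximum of 3 in both genotypes. These averages were not tested and are from nuclei of unequal depth.

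GABAergic neurons counted 289 WT and 171 V321L nuclei (median 2248 and 4624 UMIs). Without the study's upper limits they would be 45, 124, 62 and 67 WT nuclei and 65, 65, 66 and 59 V321L nuclei. With the limits they were 41, 122, 62 and 64, and 52, 31, 42 and 46, so the limits removed more V321L nuclei. In the nuclei kept, *Pnoc* was higher in V321L mice. It stood at 36.0, 14.5, 37.1 and 31.7 CPM in WT and at 157, 248, 146 and 164 CPM in V321L mice. The groups were far apart (log2 fold change 2.58 ± 0.32, edgeR adjusted p = 6.0e-06), and the thinned share of GABAergic nuclei with a *Pnoc* UMI went from 3.29% ± 2.82 to 15.1% ± 7.78 (SD, 4 WT and 4 V321L mice, exact permutation p = 0.0286; 7.61% and 43.8% without thinning). Thinned oligodendrocytes (78 WT and 350 V321L nuclei) held it in 0% of nuclei in both genotypes. That share test was lost without any 1 of the WT mice or without V321L F2 (exact permutation p between 0.0571 and 0.0857), and with a minimum of 2 UMIs it did not pass. It was also lost at a mitochondrial share under 0.5% (2.85% and 16.05%, exact permutation p = 0.143) and with thinning to 500 UMIs (1.79% and 8.52%, exact permutation p = 0.0857). The edgeR call held without each mouse in turn, at 2.25 to 2.72. The WT mice held 6, 4, 4 and 7 *Pnoc* UMIs and the V321L mice 34, 42, 32 and 28. The gene thus passed the count filter through the V321L mice only, the group where it is high.

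The other members were thinner in GABAergic neurons. *Oprd1* stood at 12, 14.5, 9.26 and 9.05 CPM in WT and at 41.5, 53.2, 31.9 and 35.2 CPM in V321L mice, on 9 and 31 UMIs (exact permutation p = 0.0286). Its thinned share, 1.26% and 3.72%, did not pass (exact permutation p = 0.0571), although it did without V321L F1 (exact permutation p = 0.0286). *Penk* stood at 6.001, 14.5, 27.8 and 0 CPM in WT and at 96.7, 47.3, 41.1 and 99.6 CPM in V321L mice, on 8 and 55 UMIs. The groups did not overlap, and the thinned shares of 0.263% and 5.58% passed (exact permutation p = 0.0286), but not without any 1 WT mouse (exact permutation p between 0.0571 and 0.0857), at a mitochondrial share under 0.5% (exact permutation p = 0.143) or with thinning to 500 UMIs (exact permutation p = 0.0571). In the count test *Penk* was below the count filter with all mice. Without WT F1 or without WT M1 it passed the filter, but through the V321L mice only. The WT mice held 1, 4, 3 and 0 *Penk* UMIs. The log2 fold changes were then 2.35 and 2.95, given as a description. *Oprm1* stood at 96.0, 79.5, 64.8 and 72.4 CPM in WT and at 73.7, 35.5, 41.1 and 58.6 CPM in V321L mice, overlapping in 1 V321L mouse (log2 fold change -0.65 ± 0.31, edgeR adjusted p = 0.11). *Oprk1* gave 4 and 3 UMIs, *Oprl1* 4 and 6, and *Pdyn* 1 and 8, of which 6 came from 1 nucleus of V321L M1. Of the 2 members tested, 1 was called higher and 0 lower, and of all 3567 GABAergic genes tested 19.3% were called higher and 15.4% lower. The member called was *Pnoc*, which passed the filter through the V321L mice only. All V321L mice lay above all WT mice in CPM for 3 of 4 members with at least 20 UMIs and below for 0, beside 21.1% and 6.32% of such genes. In the thinned shares, 1 of 2 members seen in at least 20 nuclei lay above and 0 below, beside 9.97% and 6.48%.

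The gap between GABAergic neurons and GCs was also set against genotype. For *Pnoc*, the within-mouse difference between the classes on the log2(CPM + 1) scale averaged 4.70 ± 0.56 over WT and 6.47 ± 0.44 over V321L mice, 1.78 apart with no overlap (exact permutation p = 0.0286). The GC level of *Pnoc* averaged 0.144 CPM in WT and 1.004 CPM in V321L mice, near or below the added 1 CPM, which flattens a change in GCs on this scale, and the ratio of its GC rates was 13.0 on 1 and 16 UMIs (exact 95% interval 2.03 to 547). The gap, 2.21 with 5 CPM added, is a value on that scale and does not show that the change in GABAergic neurons was larger. For *Oprd1* the gap was 0.55 (exact permutation p = 0.0571), and 0.68 with 5 CPM added (exact permutation p = 0.0286). None of the other 5 members passed with either value.

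GABAergic neurons of the DG fall into types that arise from the medial (MGE) or caudal (CGE) ganglionic eminence, and neurogliaform cells. By markers that include no opioid gene, 89 nuclei were MGE-type, 118 CGE-type and 94 neurogliaform-type, and 159 had no type. *Sst*, *Pvalb* and *Satb1* were highest in the MGE-type nuclei, *Vip* and *Cnr1* in the CGE-type nuclei, and *Lamp5* and *Ndnf* in the neurogliaform-type nuclei. With both genotypes together, *Penk*, *Oprd1* and *Pnoc* divided among these types. *Penk* gave 52 UMIs in CGE-type nuclei (130 CPM, exact 95% Poisson interval 97.3 to 171), 2 in MGE-type and 1 in neurogliaform-type nuclei. It was higher in CGE-type than in either other type of the same mouse in 7 mice and lower in none (exact sign-flip p = 0.0156 each). *Oprd1* gave 26 UMIs in MGE-type nuclei (74.9 CPM, 48.9 to 110), 2 in CGE-type and 0 in neurogliaform-type nuclei. It was higher in MGE-type than in neurogliaform-type nuclei in 7 mice and lower in none (exact sign-flip p = 0.0156), and higher than in CGE-type nuclei in 6 mice and lower in 2 (exact sign-flip p = 0.031). Of 460 GABAergic nuclei, 28 held *Penk*, 26 held *Oprd1* and 1 held both. With so few positive nuclei this overlap does not show that the 2 genes avoid each other, and it was not tested.

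*Pnoc* was lowest in MGE-type nuclei (43.2 CPM, 24.2 to 71.3), intermediate in CGE-type nuclei (103 CPM, 73.7 to 139) and highest in neurogliaform-type nuclei (180 CPM, 140 to 228). Each step passed within mice (exact sign-flip p = 0.0156 from MGE-type to CGE-type, 0.0391 from CGE-type to neurogliaform-type and 0.00781 from MGE-type to neurogliaform-type). *Oprm1* did not differ beyond its spread in any pair of types (40.3, 57.7 and 74.0 CPM, exact sign-flip p between 0.383 and 0.664). Of 460 GABAergic nuclei, 92 held *Pnoc*, 72 held *Oprm1* and 20 held both, 21.7% of those with *Pnoc* and 27.8% of those with *Oprm1*. This overlap was not tested, and the nuclei were of unequal depth. Of 21 pairs of types compared, 7 passed 0.05 without adjustment for their number, all in *Penk*, *Oprd1* and *Pnoc*. Types held between 4 and 25 nuclei per mouse.

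The genotypes were also set side by side within types. *Penk* in CGE-type nuclei gave 8 UMIs in 65 WT nuclei and 44 in 53 V321L nuclei (44.9 and 199 CPM), *Oprd1* in MGE-type nuclei 3 in 53 and 23 in 36 (17.4 and 131 CPM), and *Pnoc* in neurogliaform-type nuclei 8 in 46 and 60 in 48 (58.7 and 248 CPM). The genotypes' Poisson intervals, which cover counting error only and not the spread between mice, did not overlap in these 3 cases. Each is the type where the gene stood highest with both genotypes together. Means over 4 mice (± SD) in WT and V321L were 64.2 ± 72.9 and 187 ± 70.8 CPM for *Penk*. They were 21.4 ± 17.2 and 173 ± 131 CPM for *Oprd1*, and 57.8 ± 10.1 and 238 ± 42.4 CPM for *Pnoc*. For *Pnoc* the intervals were also apart in CGE-type nuclei, at 39.3 and 154 CPM (15.8 to 80.9 and 107 to 215). The same held in nuclei with no type, at 13.99 and 209.5 CPM (3.81 to 35.8 and 140 to 301). In MGE-type nuclei *Pnoc* stood at 11.6 and 74.2 CPM with overlapping intervals (1.41 to 42.0 and 39.5 to 127). *Oprm1* showed no single direction, with 89.7 and 31.7 CPM in CGE-type and 58.7 and 82.7 CPM in neurogliaform-type nuclei and overlapping intervals in all 3 types. The genotype difference within a type was described and not tested over mice. Within WT nuclei alone, the intervals of the 3 types overlapped for *Penk*, *Oprd1* and *Pnoc*. WT *Oprd1* stood at 17.4 CPM in MGE-type and 11.2 CPM in CGE-type nuclei, on 3 and 2 UMIs. Of the nuclei with no type, 125 were from WT and 34 from V321L mice.

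**Figure D3:**
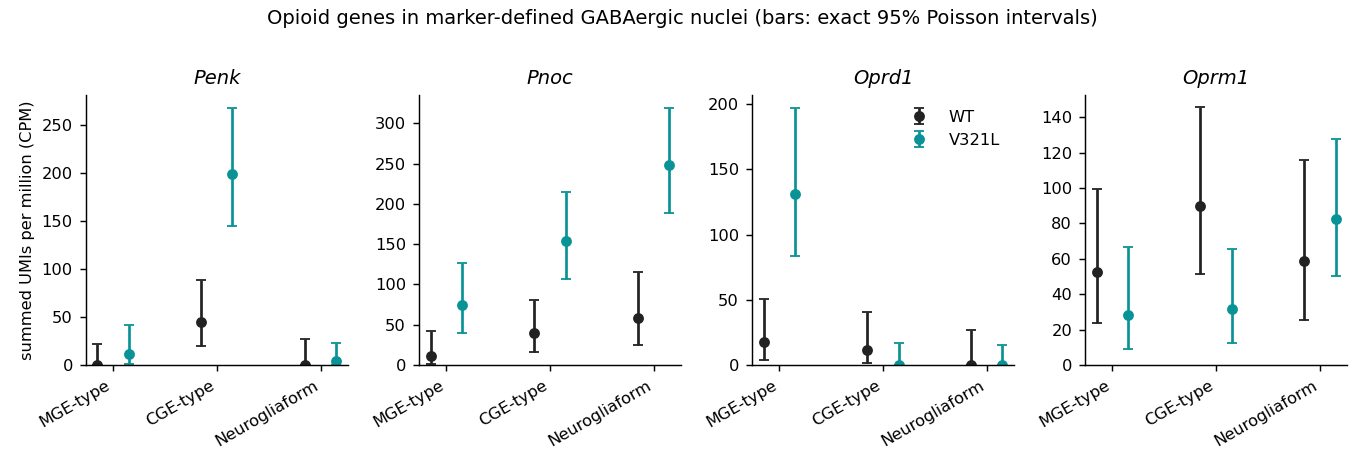
The summed level in CPM of 4 opioid genes in MGE-type, CGE-type and neurogliaform-type GABAergic nuclei, WT in black and V321L in teal, with exact 95% Poisson intervals that cover counting error only. In V321L nuclei *Penk* stood apart in CGE-type and *Oprd1* in MGE-type nuclei, and *Pnoc* rose from MGE-type to neurogliaform-type nuclei. In WT nuclei the intervals of the 3 types overlapped for these genes. The intervals of *Oprm1* overlapped between genotypes in every type.

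In other classes the opioid genes were too sparse for the count test, and none of the 7 passed the filter in pyramidal and mossy neurons together, in astrocytes or radial glia, or in oligodendrocytes. In CA1 or subiculum, *Penk* stood at 14.98, 0, 25.6 and 16.3 CPM in WT and at 29.7, 29.8, 6.31 and 45.7 CPM in V321L mice (exact permutation p = 0.229). *Oprm1* in CA3 was 2.23, 5.67, 11.3 and 3.20 CPM in WT and 2.20, 0, 0 and 1.72 CPM in V321L mice, on 12 and 2 UMIs (exact permutation p = 0.0286). The nearest mice stood at 2.23 and 2.20 CPM, and the share of all CA3 genes so separated was not computed. In pyramidal and mossy neurons together, 56.9% of tested genes over 100 kb, the length class of *Oprm1*, were called lower in V321L mice by edgeR. *Oprm1* also gave 6 UMIs in WT oligodendrocytes, 4 in WT OPCs and 0 in V321L nuclei of both classes. With the V321L group set at 3 UMIs, WT was 5.36-fold and 3.10-fold higher, ratios that leave out counting error of the 6 and 4 UMIs. Free RNA differed in the same direction, at 42.5 and 4.22 CPM. In Cajal-Retzius cells (24 WT and 57 V321L nuclei), *Pnoc* gave 0 UMIs in WT and 7 in V321L mice, and *Penk* 1 and 5.

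The opioid genes were also compared within single GCs. Of 10900 GCs, 346 held a *Penk* UMI and 400 a *Pdyn* UMI, and 23 held both, 6.65% of the *Penk*+ and 5.75% of the *Pdyn*+ GCs. Pooled over mice, *Pdyn* was found in 6.65% of *Penk*+ and 3.57% of *Penk*- GCs, but averaged over mice in 3.95% and 4.59%, with the *Penk*+ share higher in only 2 of 8 mice (exact sign-flip p = 0.570). Over 20 thinnings to 1000 UMIs the mean shares were 1.13% and 1.35% (exact sign-flip p = 0.602). *Oprm1* was found in 4.203% of *Penk*+ and 3.68% of *Penk*- GCs in the same thinnings (exact sign-flip p = 0.352), and no other member passed. In GCs with *Sorcs3*, which the study used as a marker of semilunar GCs, *Penk* was more frequent than in other GCs in 8 of 8 mice (mean over mice 5.28% and 1.26%, exact sign-flip p = 0.00781), a relation known from earlier results of these data. *Pdyn* was found in 1.66% and 1.33% (higher in 6 of 8 mice, exact sign-flip p = 0.211).

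Chromatin at the promoters was read from ATAC peaks within 1 kb of the start of each gene, called separately in each library. A peak was present in 8 libraries for *Oprl1*, 7 for *Penk*, 6 for *Oprd1*, 5 for *Pdyn*, 4 for *Oprm1*, 3 for *Pnoc* and 0 for *Oprk1*. For *Oprl1*, only 6 libraries, 3 WT and 3 V321L, had a peak over its RefSeq promoter windows. WT F2 and V321L F1 had only a peak upstream of these windows, so *Oprl1* counts cover unlike regions between libraries. The *Pnoc* peaks did not cover its start but lay inside the gene. In WT F1 the peak was chr14:65423518-65424266, while the starts lie from 65425160 to 65425472. In GCs, *Pdyn* promoter peaks held 11 ± 1.56 ATAC CPM (counts scaled to the same class total) in 3 WT and 11.4 ± 1.40 in 2 V321L libraries (exact permutation p = 0.9, where 3 against 2 libraries cannot go below 0.1). *Penk* peaks held 5.50 ± 1.22 in 4 WT and 8.32 ± 3.95 in 3 V321L libraries (exact permutation p = 0.257), *Oprd1* peaks 10.8 ± 0.552 in 4 and 9.24 ± 1.03 in 2 (exact permutation p = 0.0667, the smallest this design allows), and *Oprl1* peaks 34.95 ± 5.37 in 4 and 34.2 ± 12.2 in 4 (exact permutation p = 0.943). For these 4 genes the RNA was higher in V321L GCs while no difference in promoter counts passed, with at most 4 libraries a group. At equal ATAC depth (1000 counts per nucleus) no share of GCs with a promoter count passed 0.05, and without thinning that of *Penk* did, at 1.34% ± 0.556 and 2.77% ± 0.685 (exact permutation p = 0.0286, 4 against 3 libraries). That difference was lost with the library without a peak counted as 0 (1.34% and 2.08%, exact permutation p = 0.429) and with a 2 kb window (exact permutation p = 0.0571).

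Between classes, the *Pnoc* peak, which lies inside the gene and not over its start, held 31.2 ± 15.5 ATAC CPM in GABAergic neurons and 3.601 ± 1.339 in GCs. It was higher in 3 of 3 libraries, which is the direction of its RNA, and 3 libraries cannot reach 0.05 (exact sign-flip p = 0.250). The *Pdyn* peak, whose sequence is given above, held 11.1 ± 1.32 in GCs and 2.97 ± 4.67 in GABAergic neurons, higher in GCs in 4 of 5 libraries (exact sign-flip p = 0.125). The *Oprd1* peak lay over the CpG-rich window printed above and held 10.3 ± 1.02 in GCs and 12.2 ± 13.9 in GABAergic neurons (exact sign-flip p = 0.719). Its RNA differed between these classes in 8 of 8 mice. The GABAergic value rested on 8 WT and 14 V321L counts, with some libraries at 0, too few to show whether the peak differs between the classes.

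**Figure D4:**
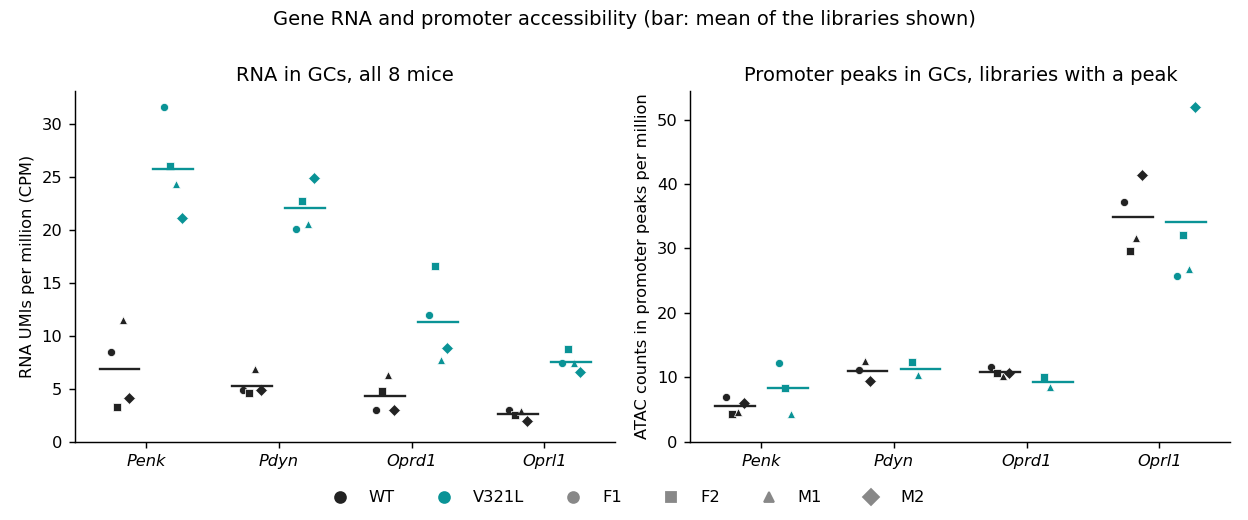
RNA of 4 opioid genes in GCs in CPM for 8 mice (left) and ATAC CPM in their promoter peaks for the libraries with a peak (right), 1 point per mouse and a bar at the mean of the libraries shown. The RNA of the V321L mice lay above that of the WT mice for each gene, and the promoter counts overlapped for *Penk*, *Pdyn* and *Oprl1*. The *Oprl1* peaks counted differed between libraries.

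Gene length separated the direction of the difference across all GC genes. Among tested genes under 20 kb, 70.6% were higher and 6.92% lower in V321L GCs, with a median log2 fold change of 1.16. From 20 to 100 kb the shares were 25.2% and 33.7% with a median of -0.08, and over 100 kb they were 3.19% and 80.3% with a median of -0.83. Lengths were known for 94.5% of the genes. The short genes *Penk* and *Pdyn* lay within the quartiles of their length class (0.39 to 2.02), as did *Oprl1*, and the long gene *Oprm1* lay within those of its own (-1.14 to -0.47). *Oprd1*, at 1.01, lay above the upper quartile of genes of 20 to 100 kb (0.42). In GABAergic neurons *Pnoc*, at 2.58, lay above the upper quartile of that length class (0.59), while *Oprm1*, at -0.65, lay just inside the lower quartile of genes over 100 kb (-0.66). *Pnoc* passed the count filter there through the V321L mice only, so its place above the quartile is a description. The part of gene length in these differences was not tested.

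**Figure D5:**
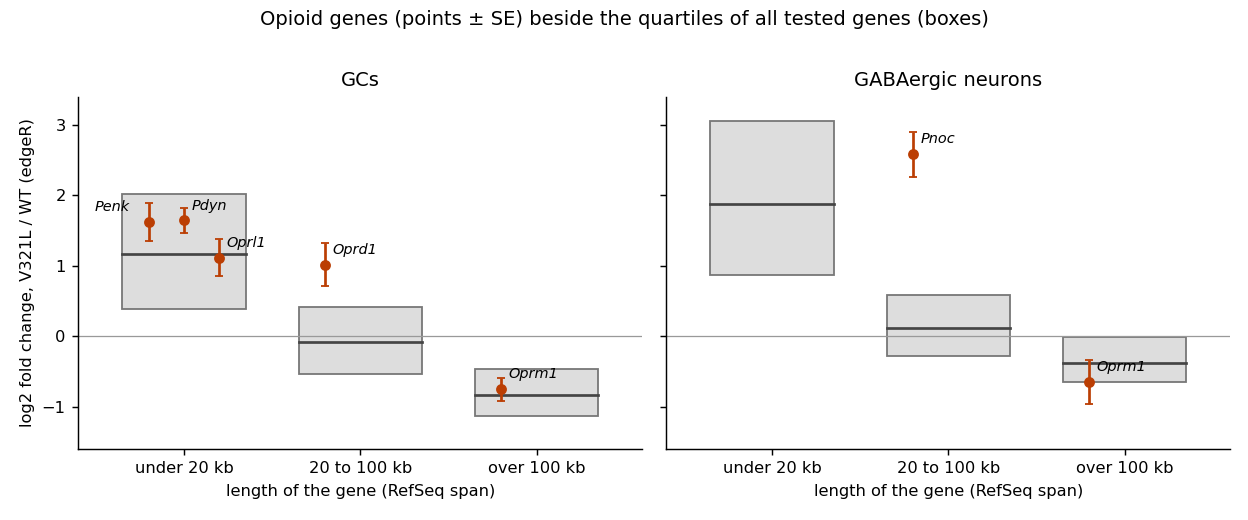
The log2 fold change of V321L against WT (edgeR) for the opioid genes tested (points ± SE) beside the lower quartile, median and upper quartile of all genes of the same length class (boxes), in GCs and GABAergic neurons. *Oprd1* in GCs and *Pnoc* in GABAergic neurons lay above the box of their length class, and the other points lay within theirs. *Pnoc* passed the count filter through the V321L mice only, where it is high, so its place is a description.

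The machinery around these genes was measured with 48 genes for precursor processing, peptide degradation, receptor coupling and downstream effectors. In GCs 43 were tested, of which 21 were higher and 16 lower in V321L mice, beside the 38.7% and 31.7% of all genes. Values are log2 fold changes with TMM ± SE, and every value given passed edgeR at an adjusted p of 0.05. Of the 6 processing genes 4 were higher and 1 lower, with a median of 0.86 beside 0.11 over all tested genes. *Pcsk1n*, which encodes the convertase inhibitor proSAAS, rose from 34.0 to 880 CPM (4.43 ± 0.37), *Ctsl*, a protease able to cut proenkephalin, from 8.30 to 73.4 CPM (2.75 ± 0.16) and *Scg5*, the chaperone of convertase PC2, from 56.3 to 193 CPM (1.34 ± 0.10). The fourth was the carboxypeptidase *Cpe* (0.37 ± 0.15). *Pcsk2*, the gene of PC2, stood at -0.42 ± 0.11 with TMM although its plain CPM was 434 in WT and 444 in V321L mice. *Pcsk1n*, *Ctsl* and *Scg5* rose in GABAergic neurons as well, by 4.55, 2.794 and 1.40.

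Of 4 peptidases tested *Dpp3* (0.98 ± 0.29) and *Ece2* (0.78 ± 0.17) were higher, and neprilysin, *Mme*, which cuts enkephalins, was lower (-1.09 ± 0.29). Of 5 Gi/o alpha subunits *Gnai2* (1.72 ± 0.27) and *Gnaz* (0.71 ± 0.19) were higher, and *Gnai1* (-0.56 ± 0.12), *Gnao1* (-0.50 ± 0.11) and *Gnai3* (-0.35 ± 0.13) were lower with TMM, while the plain CPM of *Gnai3* was 37.2 and 40.2. Of 11 genes of receptor desensitization and G protein regulation 5 were higher, among them the receptor kinase *Grk2* (1.02 ± 0.29), and *Rgs7* (-1.13 ± 0.12), *Grk5* (-1.09 ± 0.19) and *Rgs20* (-2.02 ± 0.57) were lower. Of 8 effectors tested *Cacna1a*, the pore of the P/Q-type calcium channel, rose by 1.14 ± 0.11 although it spans 301621 bases, and *Kcnj9* rose by 0.68 ± 0.19. The other called effectors were 5 that were lower, among them *Kcnj3*, a subunit of the potassium channel that Gi/o proteins open, which went from 1626 to 965 CPM (-1.20 ± 0.11), and the adenylyl cyclase *Adcy5* (-0.86 ± 0.18). In GABAergic neurons *Kcnj3* stood at -0.75 and *Cacna1a* at 0.97. The opioid growth factor receptor *Ogfr* (2.13 ± 0.32) and the opioid scavenger *Ackr3* (1.65 ± 0.25) were higher. Of 6 CRE and AP-1 factors tested *Jund* (3.07 ± 0.33), *Junb* (2.10 ± 0.34) and *Jun* (1.68 ± 0.18) were higher, and *Creb1* (-1.14 ± 0.12), *Crem* (-0.80 ± 0.21) and *Fosl2* (-0.69 ± 0.27) were lower. By length, *Pcsk1n*, *Ctsl*, *Ece2*, *Kcnj9*, *Ogfr*, *Ackr3*, *Jund*, *Junb* and *Jun* span under 20 kb, where 70.6% of tested GC genes were higher. *Pcsk2*, *Gnao1*, *Rgs7*, *Grk5*, *Rgs20*, *Kcnj3* and *Adcy5* span over 100 kb, where 80.3% were lower. *Cacna1a* and *Cpe* were higher although they span over 100 kb. The part of gene length was not tested.

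The genes whose WT levels over the 12 classes were most like those of a member are given as a description, since classes share libraries and depth. For *Pdyn* they were *Ccdc33* (Pearson r = 0.932), *Plk5* (0.894) and *Grm2* (0.892), of which *Plk5* is a GC marker used to form the classes. For *Pnoc* they were *Igf1* (0.997), *Nxph2* (0.990) and *Sst* (0.9804). For *Oprm1* they were *Gabrb2* (0.940), *Prkar2b* (0.890) and *Mapk14* (0.855). For *Penk* they were *Tceanc* (0.894), *Zfp977* (0.884) and *1700093J21Rik* (0.870), for *Oprd1* *2410018L13Rik* (0.963), *Gm3294* (0.927) and *Fut2* (0.918), and for *Oprl1* *Fdxr* (0.941), *Slc27a2* (0.938) and *Tbcb* (0.916). *Oprk1*, with 6 WT UMIs, was most like *9330158H04Rik* (0.976), *Cntnap3* (0.965) and *Pnoc* (0.965). Each list holds the 3 highest of 13412 genes over only 12 classes. The other profiles rested on 23 WT UMIs for *Pnoc*, 50 for *Oprl1*, 71 for *Pdyn*, 73 for *Oprd1*, 96 for *Penk* and 686 for *Oprm1*. How high r runs in such a search was not tested.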

How the data were processed

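Nuclei from fresh-frozen DG were processed with a 10x nuclei isolation kit and Multiome libraries. The authors ran Cell Ranger ARC (cellranger-arc 2.0.2, per the file headers) on mm10 and deposited, for each of 8 mice, a matrix of raw UMI counts per gene and ATAC counts per peak, unfiltered for nuclei. The submitters' processing notes also name Seurat and Signac. The members, gene lists and tests were chosen with earlier results of these data known.

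Nuclei were kept with more than 500 UMIs, more than 250 genes, at least 500 ATAC counts in peaks, and the study's upper limits on UMIs, genes and mitochondrial share. The ATAC minimum was set here, since fragment files were not used here. The upper limits removed more V321L than WT neurons. Of pyramidal and mossy neurons together they kept 146, 357, 213 and 195 of 176, 391, 213 and 231 WT nuclei. In V321L mice they kept 152, 85, 94 and 172 of 280, 253, 188 and 270. Of the candidate nuclei, 710 scored as doublets were removed. Classes were assigned at a posterior of 0.9 from marker UMIs, and 992 nuclei (6.08%) stayed unassigned, up to 13.0% in V321L M1. Libraries held 4326426 to 23582057 RNA UMIs over all barcodes, and GC sums per mouse 1739051 to 5720333 UMIs. Counts were summed per mouse and class and tested with edgeR 4.0.16 (quasi-likelihood, TMM, filterByExpr) in R 4.3.3, with Benjamini-Hochberg adjustment over all genes tested. Shares and within-mouse differences used exact permutation and exact sign-flip tests, two-sided (scipy 1.17.1). Intervals are exact Poisson at 95%, and a 0 allows up to 3 counts. Sequences came from RefSeq (GRCm38.p6). Promoter entries were matched for 4 of the 7 members (*Pdyn*, *Oprm1*, *Oprd1*, *Oprl1*). *Penk*, *Pnoc* and *Oprk1* had none.

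All 7 members were named in GCs and GABAergic neurons. In other classes some members were named, and immature GCs and vascular cells were given no values. Of the pathway list, up to 3 genes a group were named, those with the largest change in GCs among genes past the threshold with a mean of at least 10 CPM. *Pcsk2*, *Cpe*, *Dpp3*, *Mme*, *Gnao1*, *Gnai3*, *Rgs20*, *Kcnj9*, *Ogfr*, *Creb1*, *Crem*, *Fosl2* and the pathway genes of GABAergic neurons and other classes were named after their values were seen. 1 gene of the pathway list is not reported here. For each member the 3 genes most alike over classes were named. Alternatives changed the test, normalization, filters, depth, classes, doublets, free RNA, mice, pseudocounts and peak distance. Thinning 20 times, scaled ATAC counts, the mitochondrial limit with thinning, the split by gene length and the GABAergic types were chosen after seeing the data.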

Additional observations from a re-analysis of the deposited data

Results flagged for a closer look

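In WT GCs, *Pdyn* in mouse M1 stood at 6.90 CPM, far from the other 3 WT mice at 4.58, 4.87 and 4.92 CPM relative to their range. It was still below the lowest V321L mouse, at 20.2 CPM. In pyramidal and mossy neurons together, *Oprm1* in V321L M1 stood at 30.3 CPM on 16 UMIs, against 1.08, 1.95 and 2.53 CPM in the other V321L mice and 2.59 to 15.3 CPM in the WT mice. Of those 16 UMIs, 10 came from 33 nuclei in the mossy cell gate, the largest number of mossy nuclei of any mouse, and this library also had the largest share of unassigned nuclei (13.0%). These values come from 21 groups of 4 mice examined, and chance alone gives about 1 such value in 20 groups. The gap in *Pnoc* between GABAergic neurons and GCs differed between genotypes by 1.78 on the log2(CPM + 1) scale, tested by permuting the genotype labels (exact permutation p = 0.0286). Since the GC level lies near or below the added 1 CPM, this value does not show a larger change in GABAergic neurons. The GC count (1 and 16 UMIs) and the free RNA level of *Pnoc* (2.73 CPM in WT and 19.1 CPM in V321L libraries) stand beside it, and their part in it was not tested.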

How the results depend on the processing

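No edgeR log2 fold change of a member in GCs or GABAergic neurons changed direction under the alternatives that gave a value, and 135 of the alternative values kept their side of the threshold. The exceptions were *Oprm1* in GCs without TMM (-0.30) and at a mitochondrial share under 0.5% with thinning (-0.32, edgeR adjusted p = 0.27), which did not pass, and *Oprm1* in GABAergic neurons without upper limits (-0.89, edgeR adjusted p = 0.020), which did. Over the alternatives, *Penk* in GCs ranged from 1.36 to 2.06, *Pdyn* from 1.02 to 2.10, *Oprd1* from 0.76 to 1.48, *Oprl1* from 0.93 to 1.58 and *Pnoc* in GABAergic neurons from 2.249 to 2.790. A member below the count filter gave no value. *Penk*, *Pdyn* and *Oprm1* in GCs had values in 21 alternatives, *Oprd1* in 19 and *Oprl1* in 18. In GABAergic neurons *Pnoc* and *Oprm1* had values in 19 each. Free RNA was estimated at 0% of GABAergic UMIs in every mouse, so its subtraction changed nothing there and tested nothing. The members called in GCs were 5, and 3 after thinning, where *Oprd1* and *Oprl1* fell below the count filter, and 2 with the mitochondrial limit as well, where *Oprm1* did not pass. In these 3 settings 8689 of 12346, 6073 of 9248 and 4533 of 7810 GC genes were called. In GABAergic neurons 1 was called, and 2 without the count filter, 3 without upper limits, 0 with thinning, 0 with the mitochondrial limit and thinning, and 1 to 2 when a mouse was left out. Of all GABAergic genes 1238 of 3567 were called, 2371 of 17577 without the filter and 2017 of 5108 without upper limits. With thinning they were 139 of 813, with the mitochondrial limit and thinning 66 of 721, and 1043 to 1708 genes when a mouse was left out. In pyramidal and mossy neurons together 0 were called, beside 3923 of 7567 genes, and 1 without the filter (*Penk*), beside 5357 of 20741. When a mouse was left out, 0 to 1 were called (*Penk* without WT F1, WT M1 or V321L M1, at 2.46 to 2.92). Those 3 fits called 3950 of 8641, 4431 of 8584 and 4599 of 8428 genes. With all mice *Penk* was below the count filter here, and in CA3 it gave 0 UMIs in WT and 4 in V321L mice. Its fold changes in this class are given as a description. In oligodendrocytes 0 were called and 1 without the filter (*Oprm1*), beside 1138 of 2584 and 2391 of 16256 genes. Of the share tests 5 passed, 8 without thinning, 0 at 2 or more UMIs, 2 at a mitochondrial share under 0.5%, and 2 to 6 when a mouse was left out. The share of all genes that pass such a test in these alternatives was not computed. Of the share differences (V321L minus WT, percentage points), *Oprm1* in GCs changed direction from -0.41 to 4.85 without thinning (exact permutation p = 0.0571) and 0.017 at 2 or more UMIs, and *Oprk1* in GABAergic neurons from 0.721 to -0.676 at a mitochondrial share under 0.5%, and none of these passed. In *Penk*+ against *Penk*- GCs, 1 thinning gave 4 members that passed, against 0 without thinning and 0 over 20 thinnings, so the single draw was not used in the text. The gap between GABAergic neurons and GCs differed by genotype for 1 member (*Pnoc*, whose GC level is near or below the added value), and for 2 with 5 CPM added (*Oprd1* as well), and for *Pdyn* this difference, which did not pass, went from 0.09 to -0.40. Promoter accessibility differed for 0 members at equal depth and 1 without thinning. With the replicate numbers as a block, 5 of 5 tested members were called in GCs and 8531 genes in place of 8689. Deviations of same-numbered mice correlated at 0.055, 0.270, -0.123 and 0.028, so the numbers do not pair the mice, and not every mouse correlated best with its own number. Depth limits *Oprk1*, *Pnoc* in GCs and every gene in classes with few nuclei.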
